A study of Mus musculus with 35 samples.

Results

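Trp53, which encodes the transcription factor p53, and 9 genes that p53 is known to switch on directly were followed through RNA-Seq libraries of mouse cardiac fibroblasts (CFs) and whole hearts in which the micropeptide IAMP, encoded by 4930523C07Rik, had been reduced or removed. The 10 genes, Trp53, Mdm2, Ccng1, Sesn1, Trp53inp1, Bax, Bbc3, Phlda3, Zmat3 and Gdf15, were taken by their symbols from the 55487 genes of each of the 4 deposited tables. All 10 passed the filter on low counts in every fit. Primary CFs came from adult mice, aged 8 weeks, by enzymatic dissociation, and the cells that adhered to collagen-coated plates within 3 h were kept in culture. They received a control siRNA (si-NC) or 1 of 2 siRNAs against IAMP (si-IAMP-1 and si-IAMP-2), and were left untreated or given IL-17 or TGF-β, with 3 libraries in each of the 9 groups. For the IL-17 cells the labels give 24 h of siRNA and then 24 h of the cytokine, and the times of the other cells and the strain of the CF donors are not given in the sources used here. The hearts were of C57BL/6 mice aged 8 weeks under basal conditions, 4 heterozygous (Het) and 4 IAMP-knockout (KO), so the controls also carried the mutated allele once.

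Little p53 accumulates in unstressed cells, because MDM2, an E3 ubiquitin ligase that p53 itself induces, marks it for degradation. DNA damage and other stresses stabilise the protein, and p53 then binds the promoters and introns of genes for cell cycle arrest, growth control, DNA repair and cell death. The level of Trp53 mRNA is therefore a poor measure of p53 activity, and the mRNAs of its targets are the usual readout. Most targets also answer to other factors. Gdf15, for example, is a target of the stress factors ATF4 and CHOP as well.

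The CF libraries held 104140000 to 119232000 estimated counts and the hearts 23497000 to 23857300 counts. For genes seen in 1 library, the commonest value was 6 in each CF table and 1 in the hearts. These totals are therefore on different scales and do not compare sequencing depth. The 10 fibroblast markers summed to between 13288.2 and 21389.4 CPM (counts per 1000000 of the TMM-scaled library total) in CFs and to at most 950.233 CPM in hearts, whereas the 8 cardiomyocyte markers summed to at most 98.9286 CPM in CFs, nearly all of it Tnnt2, and to at least 45807.5 CPM in hearts. Expression of 4930523C07Rik in untreated CFs was 23.6 ± 2.0 CPM with si-NC, 3.01 ± 0.49 CPM with si-IAMP-1 and 1.83 ± 0.066 CPM with si-IAMP-2 (mean ± SD, n = 3), and it was also lower with both siRNAs under each cytokine. In hearts it was 17 ± 1.3 CPM in Het and 16 ± 0.94 CPM in KO (n = 4). The KO is a frameshift, so the transcript level does not check it. In such bulk samples, fewer cells of a type and less RNA per cell cannot be told apart.

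To show where the binding motif of p53 lies near these genes, the promoter windows of RefSeq (GRCm38.p6, 250 bases before to 50 bases after each start) were searched for the p53 half-site, a decamer that reads alike on both strands. A full response element consists of 2 such decamers, next to each other or a short distance apart. Of all 32851 windows, 8.36% held at least 1 half-site and 0.00913% held 2 in direct succession. The members had 12 windows for 8 genes, and 5 of these windows, of Bax, Ccng1, Mdm2, Sesn1 and Trp53, held 1 half-site each and none 2 in succession. The sequences below are those half-sites in capitals with the adjoining decamer in lower case, read 5′ to 3′ on the strand of the gene.
Bax: agcatatcccAGGCAAGCTT
Ccng1: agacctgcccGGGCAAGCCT
Mdm2: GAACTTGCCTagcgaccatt
Sesn1: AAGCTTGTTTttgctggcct
Trp53: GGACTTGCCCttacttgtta
The Ccng1 sequence lies at chr11:40755462-40755481 on the minus strand. Its half-site begins 185 bases upstream of the start, and its lower-case decamer misses the motif at 1 base. The Bax sequence lies at chr7:45467090-45467109 and the Mdm2 sequence at chr10:117710925-117710944, both on the minus strand. Their half-sites begin 201 and 186 bases upstream, with adjoining decamers that miss the motif at 3 and 5 bases. The Sesn1 sequence lies at chr10:41887266-41887285 and the Trp53 sequence at chr11:69580284-69580303, both on the plus strand. Their half-sites begin 173 and 75 bases upstream, each with an adjoining decamer that misses the motif at 3 bases. No half-site lay in the windows of Bbc3, Gdf15 and Phlda3, and a second window of Sesn1 had none. A match describes letters only, and sites outside these windows were not searched.

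Per kilobase of exon, the most abundant of the 10 mRNAs in untreated si-NC cells was Ccng1 at 224 CPM per kb. Phlda3 (101 CPM per kb) and Bax (96.6 CPM per kb) came next, and Mdm2 followed at 41.5 CPM per kb. Trp53inp1 (27.7 CPM per kb), Trp53 (24.5 CPM per kb) and Zmat3 (13.1 CPM per kb) were lower, and Bbc3 (4.59 CPM per kb), Gdf15 (3.85 CPM per kb) and Sesn1 (2.90 CPM per kb) the lowest. Across the 9 CF groups the mean level of Gdf15 varied most, 8.47-fold from its lowest to its highest group. Trp53inp1 varied 4.35-fold and Sesn1 3.23-fold, while Bax varied 1.38-fold and Mdm2 1.28-fold. The plot of every CF library shows these ranges gene by gene.

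**Figure D1:**
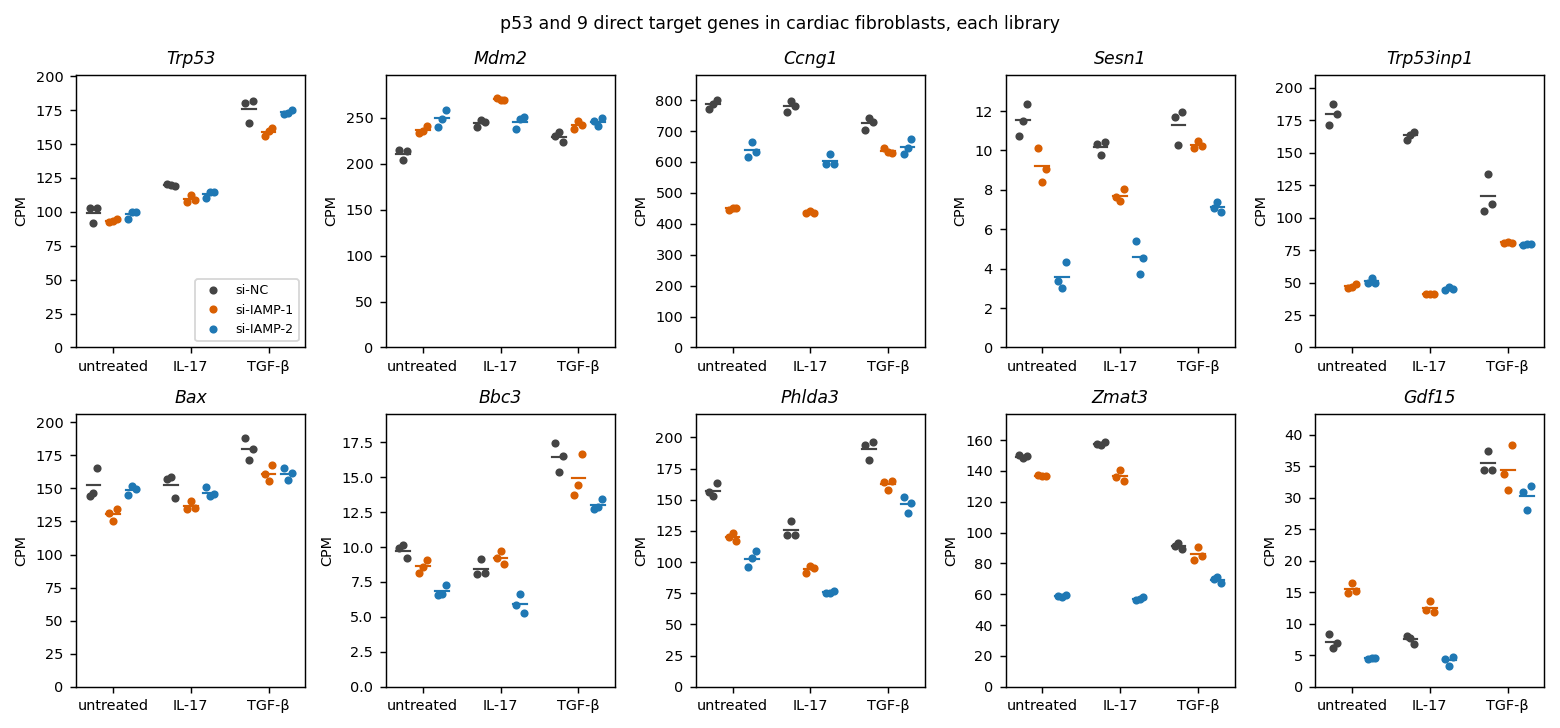
Level of each of the 10 genes (y axis, CPM, starting at 0) in the 27 CF libraries by treatment (x axis) and siRNA (colour), with a line at the mean of each group of 3. Trp53inp1 lies near 180 CPM in untreated si-NC cells and near 50 CPM with either siRNA, in untreated and IL-17 cells Zmat3 is low only with si-IAMP-2, and Gdf15 is highest in all 9 TGF-β libraries.

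The first question was whether the p53 targets moved when IAMP was knocked down in untreated CFs. Most of those that moved fell. Trp53inp1 fell furthest with both siRNAs, Ccng1 and Phlda3 fell with both to different degrees, Sesn1 and Zmat3 fell mainly with si-IAMP-2, and Gdf15 went in opposite directions. Against si-NC, 2 of the 10 genes were higher and 6 lower with si-IAMP-1, and 1 was higher and 7 lower with si-IAMP-2 with an adjusted p no higher than 0.05 (edgeR quasi-likelihood test, Benjamini-Hochberg). The background was broad, since 39.9% of 19669 genes passed with si-IAMP-1 (19.5% higher, 20.4% lower) and 49.3% with si-IAMP-2 (24.4% higher, 25% lower). The median log2 difference of the 10 genes was -0.20 with si-IAMP-1 and -0.56 with si-IAMP-2, and that of all genes tested was -0.02 with each. With the log2 difference of at least 1 that the study required in untreated cells, 1 of the 10 was higher and 1 lower with si-IAMP-1 (background 4.76%, with 2.15% higher and 2.61% lower), and 3 were lower with si-IAMP-2 (background 10.7%, with 3.42% higher and 7.23% lower).

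Trp53 itself, at chr11:69580359-69591873 on the plus strand, was measured at 103, 91.9 and 103 CPM in the untreated si-NC libraries, at 92.5, 93.3 and 94.7 CPM with si-IAMP-1 and at 94.7, 100 and 100 CPM with si-IAMP-2. All 9 libraries lay in 1 narrow band and the groups overlapped. The log2 difference was -0.09 ± 0.04 (SE) with si-IAMP-1 (adjusted p = 0.122) and -0.01 ± 0.04 with si-IAMP-2 (adjusted p = 0.841). Neither passed, although without si-NC library 2, the lowest of its group, the si-IAMP-1 difference was -0.14 and passed. The intervals of the differences, -0.17 to -0.00 and -0.09 to 0.07, bound any change of Trp53 mRNA to a small one.

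Mdm2 (chr10:117688875-117710758, minus strand), the ligase that closes the p53 feedback loop, was at 215, 204 and 214 CPM with si-NC, 233, 236 and 241 CPM with si-IAMP-1 and 241, 249 and 259 CPM with si-IAMP-2. Every knockdown library was above every si-NC library. The rise was 0.17 ± 0.03 on the log2 scale with si-IAMP-1 (adjusted p = 0.000531) and 0.24 ± 0.03 with si-IAMP-2 (adjusted p = 7.54e-06). Mdm2 was thus the only 1 of the 10 that rose with both siRNAs in untreated cells, and by small amounts.

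Trp53inp1 (chr4:11156431-11174379, plus strand) encodes a stress-induced protein that promotes the phosphorylation of p53 and takes part in autophagy. It stood at 171, 187 and 180 CPM in si-NC libraries, 45.8, 46.8 and 49.1 CPM with si-IAMP-1 and 49.8, 53.3 and 49.4 CPM with si-IAMP-2. The knockdown libraries lay far below the si-NC libraries, with the siRNAs close to each other. It fell by 1.93 ± 0.04 on the log2 scale with si-IAMP-1 (adjusted p = 8.43e-15) and by 1.82 ± 0.04 with si-IAMP-2 (adjusted p = 4.12e-15). This was the largest fall of the 10 genes with either siRNA.

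Ccng1 (chr11:40748552-40755311, minus strand) encodes cyclin G1, an atypical cyclin that binds a regulatory subunit of the phosphatase PP2A. Its si-NC libraries held 773, 786 and 799 CPM, those with si-IAMP-1 444, 452 and 452 CPM, and those with si-IAMP-2 615, 665 and 632 CPM. The 3 groups did not overlap, and the si-IAMP-2 group lay between the others. It fell by 0.81 ± 0.03 on the log2 scale with si-IAMP-1 (adjusted p = 2.53e-12) and by 0.30 ± 0.03 with si-IAMP-2 (adjusted p = 1.62e-07).

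Sesn1 (chr10:41809935-41908424, plus strand) encodes sestrin 1, which restrains the growth kinase complex mTORC1. It was low in CFs, at 10.7, 11.5 and 12.4 CPM with si-NC, 10.1, 8.41 and 9.06 CPM with si-IAMP-1 and 3.38, 3.01 and 4.31 CPM with si-IAMP-2. The si-IAMP-2 libraries were the lowest by a wide margin, while the si-IAMP-1 libraries lay just under the si-NC range. Sesn1 fell by 1.69 ± 0.12 on the log2 scale with si-IAMP-2 (adjusted p = 4.42e-09) and by 0.33 ± 0.12 with si-IAMP-1 (adjusted p = 0.0363). The si-IAMP-1 call was lost without si-IAMP-1 library 2 (-0.27) or 3 (-0.31), and without si-NC library 2 (-0.33) or 3 (-0.28).

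Bax and Bbc3 encode proteins of cell death. Bax (chr7:45461697-45466898, minus strand), whose product forms pores in the outer mitochondrial membrane, was at 144, 146 and 166 CPM with si-NC, 132, 126 and 134 CPM with si-IAMP-1 and 145, 152 and 149 CPM with si-IAMP-2. Its si-IAMP-1 libraries were all below the si-NC range, and the si-IAMP-2 libraries lay inside it. Bax fell by 0.22 ± 0.04 on the log2 scale with si-IAMP-1 (adjusted p = 0.000742), and its difference with si-IAMP-2 was -0.03 ± 0.04 (adjusted p = 0.595). Its exons share 192 of 1576 bases with Gm45808 on the same strand, a gene with a mean of 1.07 estimated counts. How reads from the shared bases were counted is not given in the sources used here.

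Bbc3 (chr7:16308393-16318205, plus strand) encodes PUMA, a protein that neutralises the survival members of the BCL2 family. It stood at 9.90, 10.2 and 9.18 CPM with si-NC, 8.15, 8.58 and 9.10 CPM with si-IAMP-1 and 6.57, 6.65 and 7.29 CPM with si-IAMP-2. The si-IAMP-2 libraries were below all others. Bbc3 fell by 0.51 ± 0.09 on the log2 scale with si-IAMP-2 (adjusted p = 7.59e-05), and the difference with si-IAMP-1 was -0.18 ± 0.08 (adjusted p = 0.113).

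Phlda3 (chr1:135766119-135769136, plus strand), whose product competes with the kinase AKT for membrane lipids, was at 156, 153 and 163 CPM with si-NC. With si-IAMP-1 it was at 120, 123 and 117 CPM and with si-IAMP-2 at 96.1, 103 and 109 CPM. The 3 groups were fully separated. It fell by 0.39 ± 0.04 on the log2 scale with si-IAMP-1 (adjusted p = 1.48e-06) and by 0.61 ± 0.04 with si-IAMP-2 (adjusted p = 2.96e-09).

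Zmat3 (chr3:32334792-32366014, minus strand) encodes a zinc-finger protein that binds RNA and regulates splicing. It was at 150, 148 and 149 CPM with si-NC, 138, 137 and 136 CPM with si-IAMP-1 and 58.8, 58.3 and 59.8 CPM with si-IAMP-2. The replicates were tight, and the si-IAMP-2 libraries stood alone at the bottom. Zmat3 fell by 1.34 ± 0.03 on the log2 scale with si-IAMP-2 (adjusted p = 3.71e-15) and by 0.12 ± 0.03 with si-IAMP-1 (adjusted p = 0.00295).

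Gdf15 (chr8:70629393-70632456, minus strand) encodes a secreted stress cytokine of the TGF-β superfamily. It was at 8.34, 6.21 and 6.87 CPM with si-NC, 14.8, 16.4 and 15.1 CPM with si-IAMP-1 and 4.38, 4.53 and 4.55 CPM with si-IAMP-2. The si-IAMP-1 libraries lay above the si-NC range and the si-IAMP-2 libraries below it. It rose by 1.12 ± 0.10 on the log2 scale with si-IAMP-1 (adjusted p = 1.11e-07) and fell by 0.67 ± 0.10 with si-IAMP-2 (adjusted p = 2.78e-05). Of the 10 genes it alone passed in opposite directions.

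**Figure D2:**
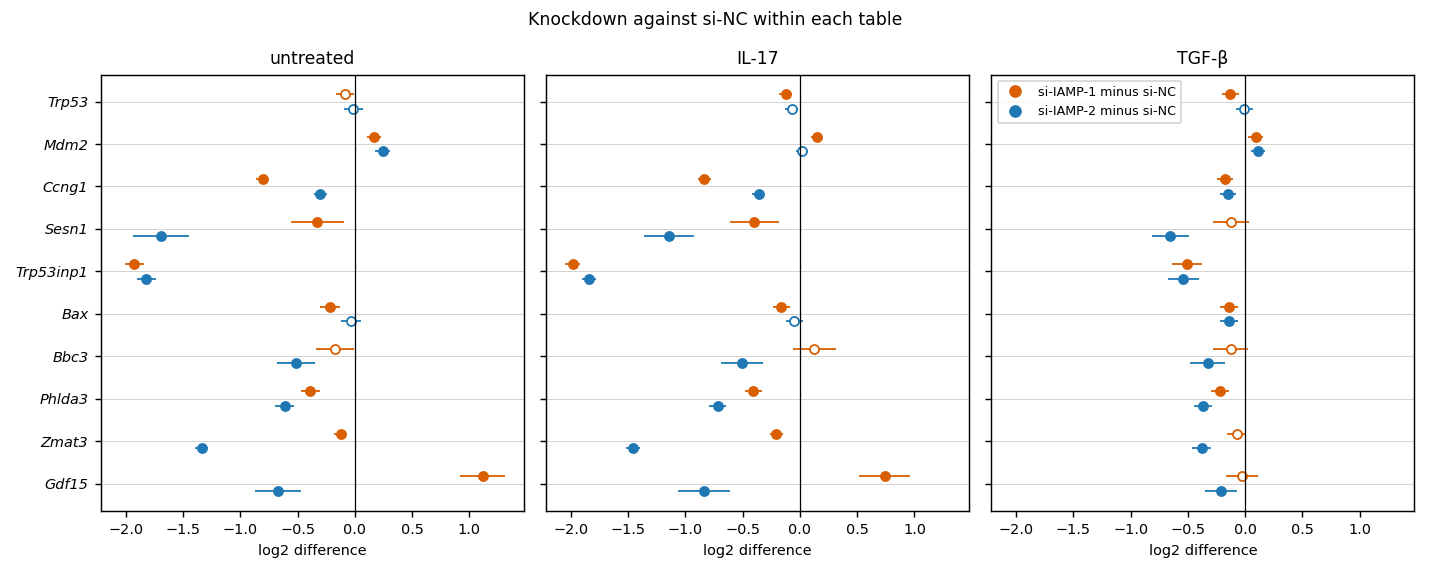
Log2 difference of each knockdown from si-NC (x axis) for the 10 genes (y axis) in untreated, IL-17 and TGF-β cells, 3 libraries a group, with 95% intervals as bars and filled points where the adjusted p was at most 0.05. Trp53inp1 lies near -1.9 with both siRNAs in untreated and IL-17 cells and near -0.5 with TGF-β, and Gdf15 lies on opposite sides of 0 in the first and second panels.

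To see how far the siRNAs gave the same result, si-IAMP-2 was set against si-IAMP-1 directly. In untreated cells 3 of the 10 genes were higher and 5 lower with si-IAMP-2, where 45.5% of all genes passed (22.7% higher, 22.8% lower). Gdf15 (-1.79 ± 0.10, adjusted p = 3.33e-10), Sesn1 (-1.37 ± 0.12, adjusted p = 8.42e-08) and Zmat3 (-1.22 ± 0.03, adjusted p = 1.68e-14) differed by more than 1 on the log2 scale. Ccng1 was higher with si-IAMP-2 (0.50 ± 0.03, adjusted p = 4.66e-10), as was Bax (0.19 ± 0.04, adjusted p = 0.00234), and Bbc3 (-0.33) and Phlda3 (-0.22) were lower. For Trp53inp1, which fell with both, the difference was 0.10 ± 0.04 with an interval of 0.02 to 0.18 (adjusted p = 0.0499). That call was lost without si-IAMP-1 library 1 (0.08) or 2 (0.10), without si-IAMP-2 library 1 (0.11) or 2 (0.08), and with no filter on low counts. Trp53 (0.07, interval -0.01 to 0.15) and Mdm2 (0.08, interval 0.01 to 0.14) did not pass, though Mdm2 did without si-IAMP-2 library 1 (0.10).

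The proliferation list, 15 genes such as Mki67 and Top2a, moved beside these results. In untreated cells its summed level ran from 1405.59 to 1428.91 CPM with si-NC, from 808.963 to 897.971 CPM with si-IAMP-1 and from 457.108 to 485.79 CPM with si-IAMP-2. Of its genes 13 fell with si-IAMP-1 and 14 with si-IAMP-2, and none rose. The other cell type lists moved less evenly. The sum of the 8 mural cell markers, genes of pericytes and smooth muscle, was 519.391 to 525.691 CPM with si-NC, 800.064 to 841.222 CPM with si-IAMP-1 and 296.756 to 313.489 CPM with si-IAMP-2. Most of that sum was Pdgfrb, a growth factor receptor that fibroblasts carry too, at 409 ± 4.1 CPM with si-NC, 743 ± 25 CPM with si-IAMP-1 and 245 ± 4.8 CPM with si-IAMP-2 (mean ± SD, n = 3). The mural genes did not rise together with si-IAMP-1, since Pdgfrb and Myh11 were higher (0.86 and 0.47 on the log2 scale) and Notch3 and Cspg4 lower (-1.61 and -0.25), with a median of 0.04, while with si-IAMP-2 none was higher and 4 were lower.

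The cardiomyocyte list summed to 91.1 to 98.9 CPM with si-NC, 42.8 to 47.5 CPM with si-IAMP-1 and 28.1 to 33.0 CPM with si-IAMP-2. Nearly all of it was Tnnt2, which fell with both siRNAs from 93.9 ± 4.4 CPM to 44.4 ± 2.7 and 29.7 ± 2.6 CPM (adjusted p = 1.69e-09 and 4.61e-12, edgeR), while Myh6 was at 0 in every si-NC and si-IAMP-2 library and at most 0.0988 CPM with si-IAMP-1. The fibroblast list summed to 13590.4 to 13985.7 CPM with si-NC, 18830.7 to 19677.3 CPM with si-IAMP-1 and 17321.9 to 17681.2 CPM with si-IAMP-2. Its genes moved both ways, 5 of 10 higher and 2 lower with si-IAMP-1 and 3 higher and 5 lower with si-IAMP-2, with the collagen gene Col3a1 higher by 0.97 and 1.45. The surface marker Thy1 fell by 0.95 and 1.04. The endothelial sum ran from 66.8 to 77.1 CPM over the 9 untreated libraries. Within it, Kdr (-0.76 and -0.73 on the log2 scale) and Pecam1 (-0.28 and -0.22) fell with both siRNAs. With si-IAMP-2, Cdh5 fell (-0.22) and Tek rose (0.57). The macrophage sum was 59.3 to 63.7 CPM with si-NC, 59.5 to 62.8 CPM with si-IAMP-1 and 75.5 to 80.6 CPM with si-IAMP-2. Its genes moved both ways. With si-IAMP-2, Csf1r (1.14) and Lyz2 (0.18) rose, C1qa fell (-0.81), and Ptprc, Cd68, Adgre1 and Mrc1 did not pass. With si-IAMP-1, Csf1r rose (0.49), and Mrc1 (-0.46) and C1qa (-0.68) fell. The part of these lists in the results on the p53 targets was not tested.

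The sum of the 14 listed ATF4 targets was 766.559 to 810.121 CPM in the untreated si-NC libraries. It was 743.254 to 759.852 CPM with si-IAMP-1, where Gdf15 was higher, and 773.297 to 805.157 CPM with si-IAMP-2, where Gdf15 was lower. Ddit3, which encodes CHOP, stood on 2 rows and was left out of the list. The part of ATF4 and CHOP in the changes of Gdf15 was not tested.

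The same contrasts were then made in cells given IL-17. With si-IAMP-1, 2 of the 10 genes were higher than with si-NC and 7 lower, and with si-IAMP-2 none was higher and 7 were lower. The share of all genes past the threshold was 42.3% with si-IAMP-1 (20.3% higher, 21.9% lower) and 50.6% with si-IAMP-2 (25% higher, 25.6% lower). At the 1.5-fold change the study required under IL-17, 1 was higher and 2 were lower with si-IAMP-1 (background 13.5%, with 5.58% higher and 7.97% lower), and 5 were lower with si-IAMP-2 (background 21.7%, with 8.06% higher and 13.7% lower). The median log2 difference of the 10 genes was -0.18 with si-IAMP-1 and -0.61 with si-IAMP-2, beside 0.00 and -0.02 for all genes.

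Trp53inp1 was at 160, 164 and 166 CPM in the si-NC libraries given IL-17, 41.3, 41.0 and 41.4 CPM with si-IAMP-1 and 44.2, 46.8 and 44.7 CPM with si-IAMP-2. Again no knockdown library came near the si-NC range. It fell by 1.98 ± 0.03 and 1.84 ± 0.03 on the log2 scale (adjusted p = 7.14e-17 and 8.71e-17). Ccng1 was at 762, 797 and 781 CPM with si-NC, 434, 442 and 436 CPM with si-IAMP-1 and 592, 626 and 594 CPM with si-IAMP-2, 3 separate groups. It fell by 0.83 ± 0.03 and 0.36 ± 0.03 on the log2 scale (adjusted p = 3.51e-13 and 6.17e-09). Zmat3 was at 158, 157 and 159 CPM with si-NC, 136, 141 and 133 CPM with si-IAMP-1 and 56.3, 56.6 and 58.4 CPM with si-IAMP-2. It fell by 1.46 ± 0.03 on the log2 scale with si-IAMP-2 (adjusted p = 4.33e-16) and by 0.21 ± 0.03 with si-IAMP-1 (adjusted p = 1.98e-05).

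Gdf15 under IL-17 was at 8.05, 7.66 and 6.86 CPM with si-NC, 12.2, 13.6 and 11.9 CPM with si-IAMP-1 and 4.44, 3.36 and 4.76 CPM with si-IAMP-2. The groups stood apart in the same order as in untreated cells. It rose by 0.74 ± 0.11 on the log2 scale with si-IAMP-1 (adjusted p = 3.96e-05) and fell by 0.84 ± 0.12 with si-IAMP-2 (adjusted p = 9.25e-06). Sesn1 fell by 0.40 ± 0.11 with si-IAMP-1 (adjusted p = 0.00709) and by 1.15 ± 0.11 with si-IAMP-2 (adjusted p = 1.4e-07), its si-NC libraries being at 10.3, 9.75 and 10.4 CPM. Phlda3 fell by 0.41 and 0.72 with si-IAMP-1 and si-IAMP-2, and Bbc3 by 0.51 with si-IAMP-2 only, its si-IAMP-1 difference being 0.13 ± 0.09 (adjusted p = 0.324).

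Trp53 was at 120, 120 and 119 CPM with si-NC and IL-17 and at 107, 113 and 109 CPM with si-IAMP-1. All 3 si-IAMP-1 libraries were lower, and the fall was 0.12 ± 0.03 on the log2 scale (adjusted p = 0.00216). With si-IAMP-2 the difference was -0.07 ± 0.03 (adjusted p = 0.0529). Mdm2 rose by 0.15 ± 0.03 with si-IAMP-1 (adjusted p = 0.000226) and differed by 0.02 ± 0.03 with si-IAMP-2 (adjusted p = 0.642). Bax fell by 0.16 ± 0.04 with si-IAMP-1 (adjusted p = 0.00225), with -0.05 ± 0.04 for si-IAMP-2, which passed only without si-NC library 3 (-0.10).

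Between the siRNAs under IL-17, 3 of the 10 genes were higher and 6 lower with si-IAMP-2 than with si-IAMP-1, beside 46.2% of all genes (23.1% in each direction). Gdf15 (-1.58 ± 0.12), Zmat3 (-1.25 ± 0.03) and Sesn1 (-0.75 ± 0.11) again differed most. Trp53, at 0.05 ± 0.03 with an interval of -0.00 to 0.11, was the gene that did not pass. The difference of Bax (0.11 ± 0.04, adjusted p = 0.0221) was lost without si-IAMP-1 library 1 (0.09) or 3 (0.11) or si-IAMP-2 library 1 (0.09). The proliferation sums moved here too, from 1372.23 to 1420.13 CPM with si-NC to 797.912 to 861.368 CPM with si-IAMP-1 and 456.024 to 478.87 CPM with si-IAMP-2, and their part was not tested.

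In cells given TGF-β, which turns fibroblasts into matrix-producing myofibroblasts, the knockdown differences were smaller. With si-IAMP-1, 1 of the 10 genes was higher than with si-NC and 5 lower, and with si-IAMP-2 1 was higher and 8 lower. The background was 23.1% of 19891 genes with si-IAMP-1 (11.7% higher, 11.4% lower) and 29.9% with si-IAMP-2 (15.1% higher, 14.8% lower). At 1.5-fold, none of the 10 passed with si-IAMP-1 (background 4.36%, with 2.45% higher and 1.91% lower) and 1, Sesn1, was lower with si-IAMP-2 (background 7.51%, with 2.07% higher and 5.44% lower). The median log2 difference of the 10 genes was -0.13 with si-IAMP-1 and -0.27 with si-IAMP-2, beside 0.00 and 0.01 for all genes.

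Trp53inp1 was at 105, 133 and 110 CPM in si-NC libraries given TGF-β, 80.6, 81.5 and 80.7 CPM with si-IAMP-1 and 78.6, 79.3 and 79.7 CPM with si-IAMP-2. Every knockdown library was below the si-NC range. The fall was 0.51 ± 0.07 on the log2 scale with si-IAMP-1 (adjusted p = 0.000134) and 0.54 ± 0.07 with si-IAMP-2 (adjusted p = 5.62e-05). Sesn1 was at 11.7, 10.3 and 11.9 CPM with si-NC, 10.1, 10.5 and 10.2 CPM with si-IAMP-1 and 7.06, 7.41 and 6.87 CPM with si-IAMP-2. It fell by 0.65 ± 0.08 with si-IAMP-2 (adjusted p = 8.75e-06), and the si-IAMP-1 libraries overlapped those of si-NC (-0.12 ± 0.08, adjusted p = 0.336). Zmat3 was at 91.6, 93.0 and 89.3 CPM with si-NC and 69.6, 71.3 and 67.3 CPM with si-IAMP-2, a fall of 0.38 ± 0.04 (adjusted p = 2.19e-06). With si-IAMP-1 its difference was -0.07 ± 0.04 (adjusted p = 0.26).

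Gdf15, at 34.5, 37.4 and 34.4 CPM with si-NC and TGF-β, was at 33.8, 31.2 and 38.4 CPM with si-IAMP-1 and at 30.9, 28.1 and 31.8 CPM with si-IAMP-2. The first 2 groups overlapped, with a difference of -0.03 ± 0.07 (adjusted p = 0.869), and the third lay below every si-NC library and overlapped the si-IAMP-1 range (-0.21 ± 0.07, adjusted p = 0.0335). The si-IAMP-2 call was lost without si-IAMP-2 library 1 (-0.23) or 2 (-0.16) or si-NC library 2 (-0.17). Ccng1 fell by 0.18 ± 0.03 with si-IAMP-1 (adjusted p = 0.00116) and by 0.15 ± 0.03 with si-IAMP-2 (adjusted p = 0.00371). Phlda3 fell by 0.22 ± 0.04 and 0.37 ± 0.04 (adjusted p = 0.000604 and 1.72e-06), and Bbc3 by 0.33 ± 0.08 with si-IAMP-2 (adjusted p = 0.00373).

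The remaining TGF-β calls were small and hung on single libraries. Trp53 fell by 0.13 ± 0.04 with si-IAMP-1 (adjusted p = 0.0171), which was lost without si-IAMP-1 library 1 (-0.11) or si-NC library 1 (-0.11) or 3 (-0.11). Bax fell by 0.14 ± 0.04 with each siRNA (adjusted p = 0.0158 and 0.0122). The si-IAMP-1 call of Bax was lost without si-IAMP-1 library 1 (-0.14) or 2 (-0.12) or si-NC library 1 (-0.10), and the si-IAMP-2 call without si-IAMP-2 library 2 (-0.12) or si-NC library 1 (-0.11). Mdm2 rose by 0.09 ± 0.03 with si-IAMP-1 (adjusted p = 0.047) and by 0.11 ± 0.03 with si-IAMP-2 (adjusted p = 0.0118). The si-IAMP-1 call of Mdm2 was lost with the replicate number as a block (0.09) and without any 1 of the 6 libraries compared except si-NC library 2 (0.07 to 0.11), and the si-IAMP-2 call without si-IAMP-2 library 3 (0.10) or si-NC library 3 (0.10). Between the siRNAs, 1 gene was higher and 3 lower with si-IAMP-2, where 24% of all genes passed (12% in each direction). Those were Sesn1 (-0.53 ± 0.08), Zmat3 (-0.31 ± 0.04), Phlda3 (-0.15 ± 0.04) and Trp53 (0.12 ± 0.04). The call of Phlda3 was lost without si-IAMP-1 library 3 (-0.14) or si-IAMP-2 library 2 (-0.12), and that of Trp53 without si-IAMP-1 library 1 (0.11) or 2 (0.13) or any 1 si-IAMP-2 library (0.12 to 0.13).

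How the stimuli themselves moved the 10 genes was asked across the tables, where each stimulus came in a table of its own, so stimulus and table cannot be told apart. With IL-17 the differences were small. In si-NC cells Trp53 (0.27 ± 0.04, adjusted p = 2.12e-06) and Mdm2 (0.21 ± 0.03, adjusted p = 3.04e-06) were higher than untreated and Phlda3 lower (-0.33 ± 0.04, adjusted p = 5.15e-07). The background was 12.2% of 22359 genes (6.13% higher, 6.1% lower). With si-IAMP-1, 2 genes were higher and 3 lower (background 14.6%), and with si-IAMP-2 2 were higher and 2 lower (background 12.5%). Trp53 rose and Phlda3 fell in all 3 siRNA arms, with log2 differences of 0.21 to 0.27 and -0.43 to -0.33. Mdm2 rose with si-NC and si-IAMP-1 (0.19 ± 0.03), and its difference with si-IAMP-2 was -0.02 ± 0.03.

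The other IL-17 calls depended on single libraries. Gdf15 was lower with si-IAMP-1 (-0.30 ± 0.10, adjusted p = 0.039), a call lost with the replicate block and without any 1 untreated si-IAMP-1 library or IL-17 library 1 or 3 of that arm (-0.33 to -0.25). Trp53inp1 was lower with si-IAMP-1 (-0.19 ± 0.05, adjusted p = 0.00979), lost without untreated library 3 (-0.17). With si-IAMP-2 it was lower by a like amount (-0.16 ± 0.05, adjusted p = 0.0414), lost without any 1 untreated library or IL-17 library 1 or 3 of that arm (-0.17 to -0.13), and with si-NC it differed by -0.14 ± 0.05, which passed without untreated si-NC library 1 (-0.18). Sesn1 was higher with si-IAMP-2 (0.36 ± 0.11, adjusted p = 0.0288), lost without untreated library 1 (0.33) or 2 (0.26) or IL-17 library 1 (0.23) or 3 (0.37) of that arm. Bbc3, at -0.20 ± 0.09 with si-IAMP-2, passed only without IL-17 library 2 (-0.29).

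With TGF-β the 10 genes moved much further, as did most of the transcriptome. In si-NC cells 6 were higher and 3 lower than untreated, beside 55.5% of 22359 genes (28% higher, 27.5% lower), and at 1.5-fold 3 were higher and 2 lower (background 33.8%, with 17.7% higher and 16.1% lower). The corresponding counts were 7 higher and 1 lower with si-IAMP-1 (background 55.4%) and 7 higher and none lower with si-IAMP-2 (background 55.5%). Gdf15 rose most. The si-NC libraries given TGF-β held 34.5, 37.4 and 34.4 CPM, against 8.34, 6.21 and 6.87 CPM untreated, and no library of the 2 groups overlapped. The rise was 2.30 ± 0.10 on the log2 scale with si-NC (adjusted p = 2.49e-18), 1.15 ± 0.10 with si-IAMP-1 and 2.74 ± 0.11 with si-IAMP-2.

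Markers of other cell types differed between the same libraries. In si-NC cells the 8 macrophage markers summed to 59.3 to 63.7 CPM untreated and 154 to 162 CPM with TGF-β, where 4 were higher, among them Adgre1 (2.63 on the log2 scale), Cd68 (1.82) and Lyz2 (1.53), and C1qa was lower (-1.33). The 8 endothelial markers summed to 71.6 to 77.1 CPM untreated and 124 to 127 CPM with TGF-β, with 7 higher and 1, Kdr, lower. The mural sum went from between 519 and 526 CPM to between 733 and 804 CPM, with 5 higher, such as Rgs5 (2.40), and 2 lower. The cardiomyocyte sum went from between 91.1 and 98.9 CPM to between 5.597 and 6.367 CPM, and Tnnt2 fell by 4.30. Of the 15 proliferation genes 14 were lower and 1 higher. The mitochondrial share of counts was 2.52% to 2.63% in the untreated si-NC libraries and 3.36% to 3.67% in those given TGF-β. The part of these differences in the changes of the p53 targets was not tested.

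Trp53 was at 180, 166 and 182 CPM in si-NC cells given TGF-β and at 103, 91.9 and 103 CPM untreated. It rose by 0.82 ± 0.04 with si-NC (adjusted p = 7.6e-19), 0.77 ± 0.04 with si-IAMP-1 and 0.80 ± 0.04 with si-IAMP-2. Bbc3, at 17.5, 15.4 and 16.5 CPM with si-NC and TGF-β, rose by 0.75 ± 0.08, 0.79 ± 0.09 and 0.91 ± 0.09 in the 3 arms. Phlda3 rose by 0.27 ± 0.04, 0.43 ± 0.04 and 0.49 ± 0.04. Bax rose by 0.23 ± 0.04 with si-NC and 0.30 ± 0.04 with si-IAMP-1, and its 0.10 ± 0.04 with si-IAMP-2 (adjusted p = 0.0567) passed without TGF-β library 2 of that arm (0.12) and with the replicate block. These genes shared 1 direction in the 3 arms.

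Zmat3, Trp53inp1 and Ccng1 did not. Zmat3 fell by 0.72 ± 0.03 with si-NC and by 0.68 ± 0.03 with si-IAMP-1, but rose by 0.22 ± 0.03 with si-IAMP-2 (adjusted p = 6.5e-19, 3.58e-18 and 6.78e-07). Trp53inp1 fell by 0.64 ± 0.05 with si-NC and rose by 0.77 ± 0.05 with si-IAMP-1 and 0.63 ± 0.05 with si-IAMP-2 (adjusted p = 2.75e-12, 4.31e-14 and 6.24e-12). Ccng1 fell by 0.13 ± 0.03 with si-NC, rose by 0.50 ± 0.03 with si-IAMP-1 and differed by 0.01 ± 0.03 with si-IAMP-2. Sesn1 rose by 0.98 ± 0.11 with si-IAMP-2 alone, where its untreated level was lowest. Mdm2 rose by 0.11 ± 0.03 with si-NC (adjusted p = 0.00178), with 0.03 ± 0.03 and -0.04 ± 0.03 in the other arms.

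**Figure D3:**
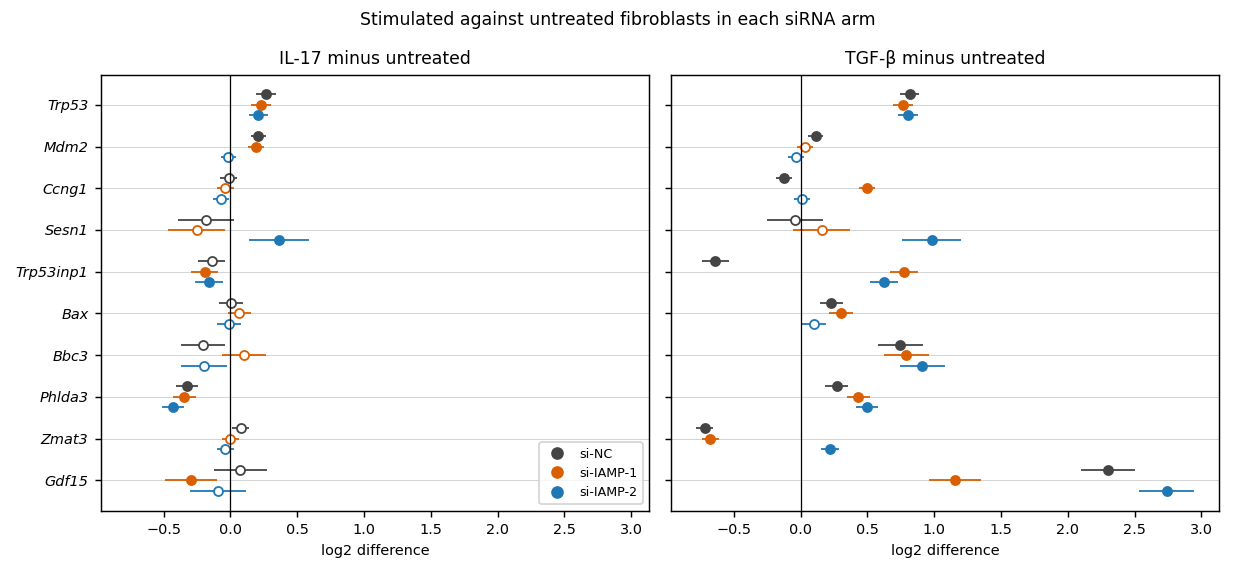
Log2 difference from untreated cells (x axis) of cells given IL-17 (left) or TGF-β (right) for the 10 genes (y axis) in each siRNA arm (colour), 3 libraries a group, with 95% intervals as bars and filled points where the adjusted p was at most 0.05. In the TGF-β panel the si-NC point of Trp53inp1 is at -0.64 and both knockdown points lie above 0.6, and only the si-IAMP-2 point of Zmat3 lies above 0.

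Whether the knockdown effect itself changed with a stimulus was tested as an interaction, in which offsets shared by all libraries of a table cancel. A change had to pass the same adjusted p and reach 1.5-fold. With IL-17 none of the 10 genes passed for either siRNA (background 0.394% for si-IAMP-1 and 0.487% for si-IAMP-2, edgeR). The adjusted p of Mdm2 for si-IAMP-2 was 0.00132, but its change of -0.22 ± 0.04 was under 1.5-fold. Sesn1 changed by 0.55 ± 0.16 for si-IAMP-2 (adjusted p = 0.0752), and it passed without untreated si-IAMP-2 library 3 (0.72) or IL-17 library 2 of that arm (0.67).

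With TGF-β, 3 of the 10 passed for each siRNA, where 5.43% of 22359 genes passed for si-IAMP-1 (3.21% higher, 2.23% lower) and 11.2% for si-IAMP-2 (6.41% higher, 4.83% lower). For si-IAMP-1 these were Trp53inp1 (1.41 ± 0.07, adjusted p = 4.85e-15), Ccng1 (0.62 ± 0.04, adjusted p = 3.21e-12) and Gdf15 (-1.15 ± 0.14, adjusted p = 2.2e-07). For si-IAMP-2 they were Trp53inp1 (1.26 ± 0.07, adjusted p = 1.37e-14), Sesn1 (1.02 ± 0.16, adjusted p = 3.46e-06) and Zmat3 (0.94 ± 0.05, adjusted p = 1.2e-16). In each case the effect was smaller in the TGF-β cells than in untreated cells. The knockdown of 4930523C07Rik was also smaller there, with a log2 difference from si-NC of -2.23 with si-IAMP-1 and -2.65 with si-IAMP-2, against -2.97 and -3.69 in untreated cells, and those changes passed as well (0.73 ± 0.15 and 1.02 ± 0.16, adjusted p = 0.000541 and 3.84e-06). The proliferation sums of the TGF-β cells, 361.229 to 372.555 CPM with si-NC, 230.043 to 255.12 CPM with si-IAMP-1 and 190.098 to 204.562 CPM with si-IAMP-2, were below those of untreated cells in every arm. The part of either in the interactions was not tested.

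Beside the 10 genes, 32 other direct p53 targets were counted, all of which could be tested in CFs. In untreated cells 10 were higher and 17 lower than with si-NC for si-IAMP-1, and 7 higher and 20 lower for si-IAMP-2, with medians of -0.27 and -0.31. Under IL-17 the counts were 9 and 18, and 7 and 20, with medians of -0.28 and -0.38. Under TGF-β they were 11 and 7 for si-IAMP-1 and 2 and 16 for si-IAMP-2, with medians of 0.04 and -0.11. The 11 became 5 without si-IAMP-1 library 2 and 7 without si-NC library 1. Of all genes, 39.9% passed untreated with si-IAMP-1 (19.5% higher, 20.4% lower) and 49.3% with si-IAMP-2 (24.4% higher, 25% lower). Under IL-17 the shares were 42.3% (20.3% higher, 21.9% lower) and 50.6% (25% higher, 25.6% lower). Under TGF-β they were 23.1% (11.7% higher, 11.4% lower) and 29.9% (15.1% higher, 14.8% lower).

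Cdkn1a, the p21 inhibitor of cyclin-dependent kinases and the best known p53 target, was at 383 ± 7.8 CPM in untreated si-NC cells, 290 ± 4.8 CPM with si-IAMP-1 and 348 ± 5.9 CPM with si-IAMP-2 (n = 3). The 3 groups did not overlap, and it fell by 0.40 ± 0.03 and 0.14 ± 0.03 on the log2 scale (adjusted p = 4.97e-09 and 0.0004). Under IL-17 it fell by 0.42 and 0.27, and under TGF-β it differed by -0.06 with si-IAMP-1 (adjusted p = 0.242) and fell by 0.14 with si-IAMP-2. Most of the proliferation genes were also lower in each of these comparisons, and any link to Cdkn1a was not tested.

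Among the other targets that moved alike with both siRNAs, Tigar, a regulator of glycolysis, rose most in untreated cells, by 0.71 with si-IAMP-1 and 1.06 with si-IAMP-2. Gadd45a, a DNA damage response gene, rose by 0.37 and 0.80. Pidd1, a scaffold of caspase-2 activation, fell by 1.33 and 1.98, and Eda2r, a death receptor of the TNF receptor family, fell by 0.99 and 2.29. The Eda2r call with si-IAMP-1 (adjusted p = 0.0283) was lost with the replicate block (-0.998) and without any 1 of the 6 libraries of si-NC or si-IAMP-1 (-1.01 to -0.96), beside an si-IAMP-2 group spread from 16.2 to 35.8 CPM. Under IL-17, Tigar (0.75 and 0.98) and the death receptor Fas (0.83 and 0.58) led the rises, and Eda2r (-1.09 and -2.39) and Pidd1 (-1.23 and -1.99) the falls. Under TGF-β the extremes were Gadd45a (0.25 and 0.65) and the kinase Plk2 (0.15 and 0.21) above si-NC, and the desmosome-linked Perp (-0.66 and -0.76) and the spindle gene Psrc1 (-0.25 and -0.58) below it.

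The regulators of p53 were mostly lower where they passed. Of 21 tested in untreated cells, 1 was higher and 12 lower with si-IAMP-1, and 5 higher and 13 lower with si-IAMP-2. Under IL-17 (20 tested) the counts were 2 and 12, and 5 and 13, and under TGF-β (21 tested) 1 and 4, and 2 and 5. Of all genes, 39.9% and 49.3% passed untreated with si-IAMP-1 and si-IAMP-2 (20.4% and 25% lower). The shares were 42.3% and 50.6% under IL-17 (21.9% and 25.6% lower). Under TGF-β they were 23.1% and 29.9% (11.4% and 14.8% lower), and the regulators passed there at close to these shares. The 2 under IL-17 became 1 without si-IAMP-1 library 2 or 3 or si-NC library 1 or 3. Under TGF-β the 1 with si-IAMP-1 became 0 without si-IAMP-1 library 1, 3 without si-NC library 2 and 2 without si-NC library 3, and the 2 with si-IAMP-2 became 1 without any 1 si-IAMP-2 library or si-NC library 1 or 2.

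Ppm1d, the phosphatase that switches p53 signalling off and is itself a p53 target, fell with both siRNAs in every table. The falls were 0.55 and 0.78 untreated, 0.81 and 1.09 under IL-17, and 0.33 and 0.40 under TGF-β. Mdm4, the partner of MDM2, fell with si-IAMP-2 in untreated (0.59) and IL-17 cells (0.60). Its difference with si-IAMP-1 was -0.02 (adjusted p = 0.759) and -0.15 (adjusted p = 0.00715), the latter lost without si-IAMP-1 library 2 (-0.12). Under TGF-β Mdm4 differed by 0.17 and -0.15, neither of which passed, though the first did without si-NC library 2 (0.24). Cdkn2a, whose locus encodes the MDM2 inhibitor ARF together with the kinase inhibitor p16, fell with si-IAMP-2 in all 3 tables (0.47, 0.43 and 0.51). With si-IAMP-1 it fell by 0.23 in untreated cells, lost without si-IAMP-1 library 3 (-0.20) or si-NC library 3 (-0.17), and differed by -0.12 and -0.04 under the cytokines. It had 0 counts in all 8 hearts. The p53 relatives Trp63 and Trp73 reached at most 0.306 and 0.0928 CPM in any CF library.

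By the same rule, the acetyltransferase Kat5 rose in untreated (0.35 and 0.29) and IL-17 cells (0.36 and 0.39), and the checkpoint kinase Chek1 fell (-0.67 and -1.52, then -0.62 and -1.39). Under TGF-β Ep300 rose (0.17 and 0.25) and Chek2 fell (-0.24 and -0.62). The si-IAMP-1 calls of that pair were lost without si-IAMP-1 library 1 (0.15 for Ep300, -0.20 for Chek2), and also without si-NC library 1 for Ep300 (0.12) and si-NC library 3 for Chek2 (-0.22).

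The BCL2 family (14 tested) and the ATF4 targets (14 tested) gave no single direction. In untreated cells 3 of the BCL2 family were higher and 6 lower with si-IAMP-1, and 6 higher and 5 lower with si-IAMP-2. Under IL-17 the counts were 4 and 7, and 5 and 5, and under TGF-β 1 and 6, and 3 and 3. Of all genes, 39.9% and 49.3% passed untreated with si-IAMP-1 and si-IAMP-2, 42.3% and 50.6% under IL-17, and 23.1% and 29.9% under TGF-β. Without si-NC library 3 the 1 under TGF-β became 2, and without si-IAMP-2 library 2 the 3 higher became 1. Bnip3, a mitophagy receptor, rose in every table (0.69 and 1.39 untreated, 0.64 and 1.37 under IL-17, 0.64 and 0.22 under TGF-β), the last value losing its call without si-IAMP-2 library 1 (0.20) or 2 (0.21) or si-NC library 2 (0.19). Bcl2l11, which encodes the death activator BIM, fell in untreated (-0.70 and -1.11) and IL-17 cells (-0.96 and -1.07), and Bmf, a related gene, under TGF-β (-0.87 and -0.98).

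Of the ATF4 targets, 3 were higher and 5 lower with si-IAMP-1 in untreated cells, where Gdf15 was raised, and 5 higher and 5 lower with si-IAMP-2, where Gdf15 was lowered. Under IL-17 the counts were 4 and 4, and 5 and 6, and under TGF-β 2 and 9, and 7 and 2. The shares of all genes with si-IAMP-1 and si-IAMP-2 were 39.9% and 49.3% untreated, 42.3% and 50.6% under IL-17, and 23.1% and 29.9% under TGF-β. Cebpb, an inflammatory transcription factor, rose by 1.19 and 1.62 untreated and 0.58 and 0.67 under IL-17, and Psat1, an enzyme of serine synthesis, fell by 1.21 and 0.68 untreated and by 1.21 and 0.65 under IL-17. Under TGF-β the cystine transporter Slc7a11 rose by 1.15 and 1.39, and Ddit4, an inhibitor of mTORC1, fell by 0.42 and 0.15, the latter lost without si-IAMP-2 library 2 (-0.12) or si-NC library 2 (-0.15) or 3 (-0.14). In si-NC cells the ATF4 target sum was 766.559 to 810.121 CPM untreated and 1422.94 to 1492.96 CPM with TGF-β, where Gdf15 rose, and its part in that rise was not tested. The proliferation list had 13 genes lower with si-IAMP-1 and none higher in each table, and 14, 14 and 13 lower with si-IAMP-2.

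**Figure D4:**
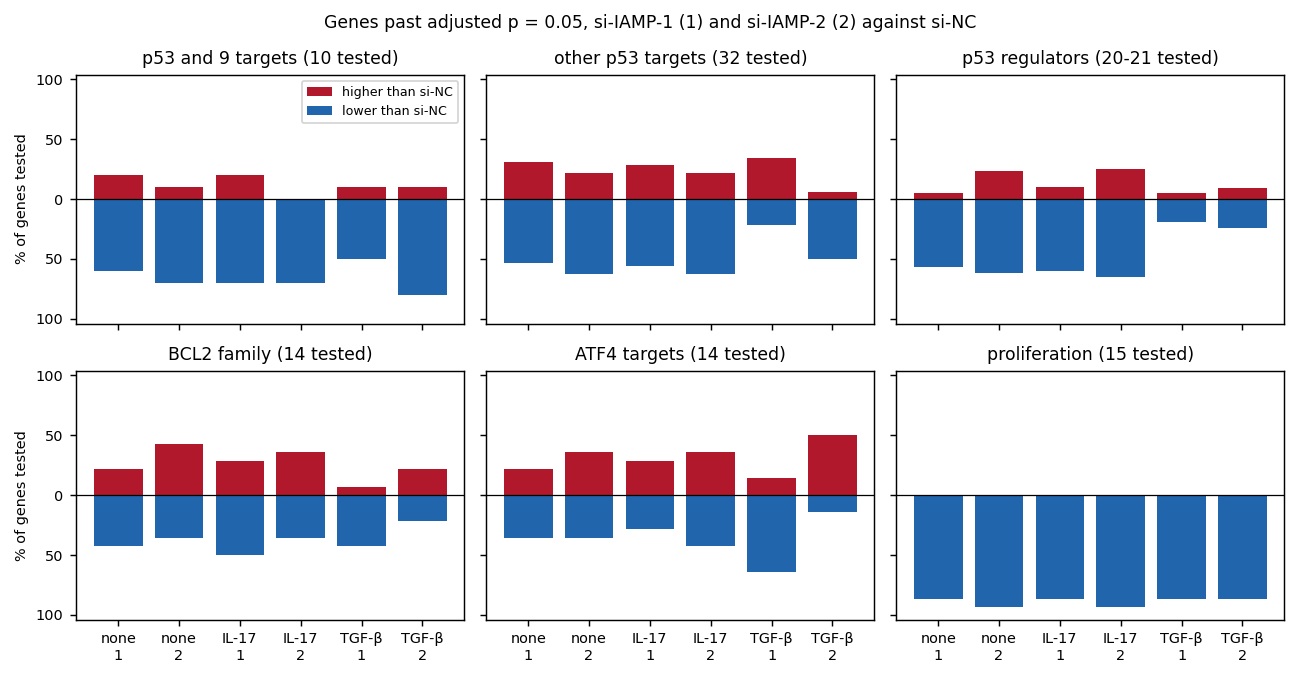
Share of the tested genes of 6 lists (y axis, percent, drawn up for higher and down for lower) that passed an adjusted p of 0.05 against si-NC, for si-IAMP-1 (1) and si-IAMP-2 (2) in untreated (none), IL-17 and TGF-β cells (x axis), 3 libraries a group. The bars of the 10 genes point mainly down, and those of the proliferation list only down. Those of the BCL2 family and ATF4 targets point both ways. For the other p53 targets they point mainly down, except with si-IAMP-1 under TGF-β, where more genes were higher than lower. Of all genes, 23.1% to 50.6% passed in these comparisons, shares that are not drawn.

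In hearts the question was whether the loss of IAMP in the whole animal moved the same genes. None of the 10 passed, and neither did any of 16675 genes (0%, edgeR quasi-likelihood test), with 601 genes at an unadjusted p under 0.05, a lowest adjusted p of 0.279 and 3 genes called by DESeq2. The order of levels also differed from CFs. Ccng1 led again at 174 CPM per kb in Het hearts, Sesn1 came next at 25.3 CPM per kb, and Zmat3 (0.671 CPM per kb) and Gdf15 (0.672 CPM per kb) were lowest.

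Trp53inp1, the gene with the largest fall in CFs, was at 6.85, 10.5, 10.7 and 6.65 CPM in Het hearts and at 11.4, 14.0, 11.3 and 16.1 CPM in KO hearts. Every KO heart was above every Het heart. The log2 difference was 0.60 ± 0.19 with an interval of 0.23 to 0.97, with an unadjusted p of 0.0108 (edgeR) and an adjusted p of 1.00, and by DESeq2 0.60 with an adjusted p of 0.925. Leaving out 1 heart at a time gave 0.49 to 0.72. This did not pass the correction and had the opposite sign to the CF differences.

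Sesn1 was at 119, 95.7, 109 and 79.9 CPM in Het and 115, 111, 120 and 112 CPM in KO hearts. The groups overlapped, and the difference was 0.18 ± 0.10. Ccng1 was at 601, 669, 594 and 580 CPM in Het and 565, 625, 630 and 615 CPM in KO hearts, again overlapping, with a difference of -0.01 and an interval of -0.11 to 0.10. Trp53 differed by -0.10 (interval -0.24 to 0.04), Mdm2 by 0.04 (-0.08 to 0.16), Bax by -0.12 (-0.25 to 0.01), Zmat3 by 0.08 (-0.10 to 0.26) and Phlda3 by -0.16 (-0.38 to 0.07). Bbc3 and Gdf15 had wide intervals, at 0.04 (-0.45 to 0.52) and 0.22 (-0.18 to 0.62). Bbc3 ran from 2.75 to 6.27 CPM among the Het hearts, and Gdf15 was at most 1.68 CPM in any heart. Whole hearts hold many cell types, the fibroblast markers summed to at most 950.233 CPM there, and whether a change in CFs alone would show at this depth was not tested.

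**Figure D5:**
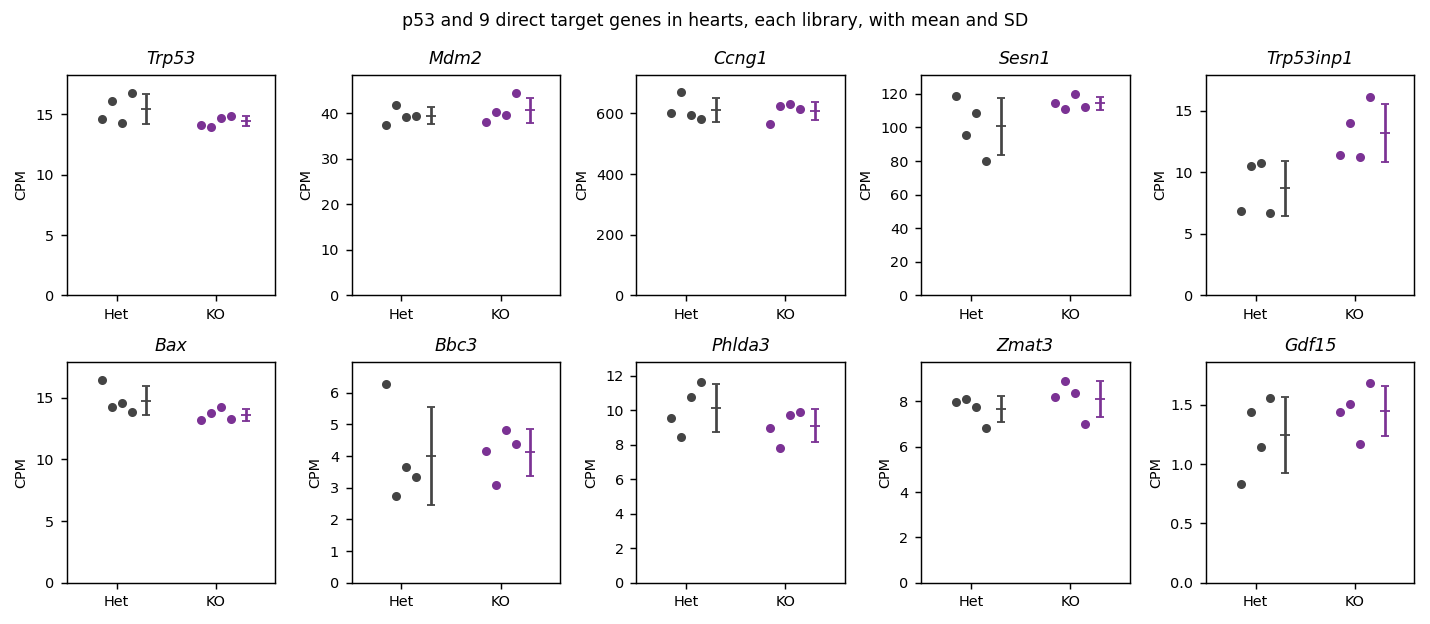
Level of the 10 genes (y axis, CPM, starting at 0) in each of 4 Het and 4 KO hearts (x axis), points for hearts and bars for mean ± SD. The KO hearts lie above the Het hearts for Trp53inp1, and for the other genes shown the groups overlap.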

How the data were processed

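RNA-Seq of 27 CF libraries and 8 hearts was analysed from 4 deposited tables. The authors trimmed reads with Cutadapt, aligned them to GRCm38 with HISAT2 and assembled them with StringTie. The deposited values are whole numbers without normalization, read in the CF tables as estimated counts (the commonest value of a gene seen in 1 library was 6) and for the hearts as plain counts. Strand and counting settings are not given in the sources used here. Fits were made in R 4.3.3 with edgeR 4.0.16 (with limma 3.58.1), and DESeq2 1.42.0 served as an alternative. The 9 libraries of a CF table, or the 8 hearts, entered 1 edgeR quasi-likelihood fit (TMM, filterByExpr, robust). The stimulus contrasts and interactions used 1 fit of all 27 CF libraries. P values were adjusted by Benjamini-Hochberg over all genes tested, and a call needed an adjusted p of at most 0.05. CPM used TMM factors over all CF libraries, and over the hearts separately. Standard errors are of the log2 difference, intervals are 95%, and exon lengths and gene positions are from GENCODE vM21 (GRCm38). The labels do not say that replicates came from separate cultures, so p values measure the spread between these libraries.

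The members and the gene lists were chosen with earlier results of these data known. All members are named, and other listed genes by a rule: Cdkn1a, Mdm4, Ppm1d, Cdkn2a, Trp63 and Trp73 always, and per CF table and list those with the largest mean rise and fall over both siRNAs among genes passing with both, at 1 CPM or more and with no overlap between knockdown and si-NC libraries (2 each of the other targets, 1 each of the other lists). Promoter windows came from RefSeq, and 2 members without a window, Zmat3 and Trp53inp1, were not searched.

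Each value was computed again with DESeq2, without the filter, with RLE size factors, with a minimum of 10 counts in every library, with estimated counts divided by 6, with only the 2 groups or 2 tables compared, with the replicate number as a block, and leaving out each library in turn. In simulated data, 200 genes were changed by at least 1 on the log2 scale and all others were left unchanged. Of the 200, 130 were recovered in the untreated comparison of the siRNAs (19669 genes, 9 false calls). In hearts 180 were recovered (16675 genes, 9 false calls), and in the TGF-β interaction of si-IAMP-2 111 (22359 genes, 3 false calls). Smaller changes were not simulated, so these counts do not show how often such changes would be found.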

Additional observations from a re-analysis of the deposited data

Results flagged for a closer look

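For 6 knockdown effects the size in cells given TGF-β differed from that in untreated cells by the test of the difference itself (edgeR quasi-likelihood interaction, 3 libraries a group, adjusted p at most 0.05 and at least 1.5-fold). Values are the log2 difference from si-NC in TGF-β cells minus that in untreated cells. For si-IAMP-1 they were 1.41 for Trp53inp1, 0.62 for Ccng1 and -1.15 for Gdf15. For si-IAMP-2 they were 1.26 for Trp53inp1, 1.02 for Sesn1 and 0.94 for Zmat3. Each passed under all the alternatives run and without any 1 library. The TGF-β libraries came in a table of their own, their siRNA and cytokine times are not given in the sources used here, and the knockdown of 4930523C07Rik itself was smaller in them.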

How the results depend on the processing

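Over all alternatives, values of the 10 genes kept their direction and side of the threshold in 2667 cases, lost the call in 63, gained it in 29 and changed sign in 71. Counts of calls stayed within 1.5 times in 1568 cases and moved further in 54. The values whose sign changed passed in neither fit, and the largest of them was 0.103 on the log2 scale. The cause of the changes was not tested. Replicate numbers are shared between CF groups, but same-numbered libraries did not deviate together (correlations of -0.196 to 0.069), so the numbers do not pair them. With the replicate number as a block, 2 of 110 calls of the 10 genes were lost (Mdm2 with si-IAMP-1 under TGF-β, leaving 0 of the 10 higher there, and Gdf15 of IL-17 against untreated with si-IAMP-1), 1 of 80 values not called was gained (Bax of TGF-β against untreated with si-IAMP-2) and no sign changed. The Het and KO hearts came from different animals, and no pairing of them is given in the sources used here. Their columns carry no replicate numbers that tie to a sample.

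Among counts of the 10 genes, that of genes higher with si-IAMP-1 than si-NC under TGF-β was 0 in place of 1 with only the 2 groups compared, with RLE size factors and with no filter, and 0 to 1 without single libraries. For si-IAMP-2 under TGF-β it was 0 with the 2 groups only and 0 to 1 without single libraries, and the number past 1.5-fold was 1 to 2. Genes lower with si-IAMP-1 under TGF-β numbered 3 to 5 without single libraries, and genes higher with si-IAMP-2 than si-IAMP-1 there 0 to 1. In untreated cells 5 were higher with si-IAMP-2 than si-IAMP-1 with the 2 groups only. For IL-17 against untreated with si-IAMP-2, genes lower were 1 with DESeq2, with RLE size factors and with estimated counts divided by 6, and 1 to 3 without single libraries, and genes higher 1 to 2. With si-NC, genes lower were 2 with the 2 tables only and with division by 6, and 1 to 2 without single libraries, and with si-IAMP-1 1 to 3. The IL-17 interaction of si-IAMP-2 had 0 to 1 of the 10 higher. Among all genes, DESeq2 called 144 for the IL-17 interaction of si-IAMP-1, 87 of them lower (36 to 71 lower in edgeR without single libraries), and 77 higher for si-IAMP-2. In hearts DESeq2 called 3, 2 higher and 1 lower, and edgeR without single hearts called 0 to 1, with 0 to 1 in each direction.

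The log2 differences whose sign changed are given by their lowest and highest value without single libraries. For si-IAMP-2 against si-NC, Bax ran from -0.075 to 0.03 and Trp53 from -0.066 to 0.012 in untreated cells, Mdm2 from -0.005 to 0.034 under IL-17, and Trp53 from -0.046 to 0.016 under TGF-β. For si-IAMP-1 against si-NC under TGF-β, Gdf15 ran from -0.109 to 0.039 and Cdkn2a from -0.088 to 0.004. For si-IAMP-2 against si-IAMP-1 under TGF-β, Bax ran from -0.023 to 0.027 and Ccng1 from -0.001 to 0.056. For IL-17 against untreated, Bax (-0.038 to 0.071), Ccng1 (-0.031 to 0.004) and Gdf15 (-0.019 to 0.195) changed with si-NC, Zmat3 (-0.024 to 0.011, and 0.001 with both DESeq2 and RLE size factors) with si-IAMP-1, and Bax (-0.033 to 0.004), Gdf15 (-0.192 to 0.042) and Mdm2 (-0.038 to 0.021) with si-IAMP-2. For TGF-β against untreated, Sesn1 ran from -0.107 to 0.012 with si-NC, and Ccng1 from -0.02 to 0.042 and Mdm2 from -0.056 to 0.004 with si-IAMP-2. In the IL-17 interaction of si-IAMP-1, Bax ran from -0.006 to 0.097, Mdm2 from -0.032 to 0.007, Phlda3 from -0.048 to 0.02, Sesn1 from -0.129 to 0.005 and Trp53 from -0.066 to 0.017. In that of si-IAMP-2, Bax ran from -0.082 to 0.032, Bbc3 from -0.08 to 0.088 (-0.003 with no filter) and Trp53inp1 from -0.05 to 0.021. In the TGF-β interaction, Bbc3 ran from -0.04 to 0.101 and Trp53 from -0.078 to 0.005 for si-IAMP-1, and Trp53 from -0.038 to 0.046 for si-IAMP-2 (0.017 with at least 10 counts in every library, 0.015 with division by 6). In hearts, Bbc3 ran from -0.103 to 0.339, Ccng1 from -0.028 to 0.04 and Mdm2 from -0.007 to 0.073.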
